A study of Mus musculus with 4 samples.

Results

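The 6 genes described here are the colony-stimulating factor receptor genes Csf1r, Csf2ra, Csf2rb, Csf2rb2 and Csf3r and the ligand gene Csf1. They were taken by symbol, and all 6 were found among the 15690 features of the count tables. Transcripts were counted in single myeloid cells sorted by flow cytometry from the brains of mice with lung cancer brain metastasis, 1 cell per well of a 384-well plate. The study set cells labelled BMDM (in the usage of the field, macrophages derived from bone marrow) against cells labelled microglia, the resident macrophages of the brain, with and without whole brain radiation therapy (WBRT). The 4 groups were BMDM with WBRT, BMDM without WBRT, microglia with WBRT and microglia without WBRT, and each was 1 plate.

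All 4 groups came from Balb/C athymic nude mice (CAnN.Cg-Foxn1nu/Crl), which lack a thymus, so the hosts have few T cells. According to its label, WBRT was given as 5 doses of 2 Gy, with a day code d3 counted from an unstated start. The tumor stage is labelled not stratified in both WBRT groups and small in both groups without it. Treatment therefore coincides with stage and with plate, and their parts cannot be told apart. The labels name no animals and no sort gates. With 1 library per group no test was possible. Each fold compares 1 library with another, and its 95% interval covers counting error only.

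Macrophages and microglia depend on signals through Csf1r, a receptor tyrosine kinase, for survival, and drugs that block it deplete microglia from the mouse brain. Its ligands are Csf1 and interleukin-34. The receptor for granulocyte-macrophage colony-stimulating factor (GM-CSF) joins a specific chain, Csf2ra, to the beta common chain Csf2rb, which also serves interleukin-3 and interleukin-5. Mice carry a further beta chain, Csf2rb2, used by interleukin-3 alone, and Csf3r is the receptor for granulocyte colony-stimulating factor, best known from neutrophils.

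After filtering, 262, 234, 151 and 157 wells were kept of BMDM with WBRT, BMDM without WBRT, microglia with WBRT and microglia without WBRT. The plates held 649107 to 2513025 transcripts, with medians per well of 2546 to 8894. The plate of microglia with WBRT was the shallowest and stood apart in its median share of synthetic spike-in RNA, 30.6% against 6.92% to 7.86% in the other plates. Its 5 astrocyte markers, all with counts, summed to 865 CPM, against 44.6 CPM in BMDM with WBRT, 27.6 CPM in BMDM without WBRT and 101 CPM in microglia without WBRT, where 4 had counts. Their part in the results of this plate was not tested. The 10 fixed microglia markers summed to 2052 and 2625 CPM (counts scaled to the same total in each plate) in BMDM with and without WBRT, against 9414 and 8147 CPM in microglia with and without WBRT, and the 8 monocyte markers to 1518 and 1511 CPM in BMDM, against 38.5 and 130 CPM in microglia. The microglia and monocyte markers divided the sorts as labelled, but the plates were mixed. The 10 dendritic cell markers summed to 192 and 1857 CPM in BMDM with and without WBRT, against 330 and 293 CPM in microglia. The 8 border-associated macrophage markers summed to 2097 and 408 CPM in BMDM, against 402 and 64.0 CPM in microglia. In a plate total, fewer wells of a kind and less RNA per well cannot be told apart. Wells were grouped into 12 clusters without use of the 6 genes. Microglia-like wells (clusters 2, 3 and 7) numbered 26 in BMDM with WBRT, 20 in BMDM without WBRT, 99 in microglia with WBRT and 139 in microglia without WBRT. Dendritic cell-like wells (clusters 9 and 10) numbered 4 in BMDM with WBRT and 69 in BMDM without WBRT, and none were on the microglia plates. Border-associated macrophage-like wells (cluster 4) numbered 82 in BMDM with WBRT, 6 in BMDM without WBRT and 1 in microglia with WBRT. The neutrophil markers S100a9, Ly6g, Retnlg, Ngp and Camp and the T cell markers Cd3e, Cd3g and Trbc2 had no counts in any plate.

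Between plates a gene was called higher or lower when its levels differed by at least 2-fold on CPM + 5, among features of at least 20 CPM in 1 of the 2 plates. All 6 genes could be called in all 4 comparisons. In BMDM over microglia with WBRT, 1 of 6 was lower and none higher, beside 7.45% of 6774 features called lower and 7.91% higher, 15.4% in all. Without WBRT 3 of 6 were lower and none higher, beside 6.81% of 6591 features called lower and 10.3% higher, 17.2% in all. In BMDM with over without WBRT 1 of 6 was lower and none higher, beside 6.14% of 6551 features called lower and 5.16% higher, 11.3% in all. In microglia with over without WBRT none of the 6 was called, beside 7.56% of 6723 features called lower and 9.36% higher, 16.9% in all. The median log2 ratio of the 6 genes was -0.38, -0.80, 0.39 and -0.09 in these 4 comparisons, beside 0.07, 0.02, 0.08 and 0.06 over all features.

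Csf1r (chromosome 18, 61105572 to 61131139, GRCm38) was detected in most wells of every plate. Its level was 1772 CPM in BMDM with WBRT (1721 to 1825), 1279 CPM in BMDM without WBRT (1217 to 1343), 2753 CPM in microglia with WBRT (2627 to 2884) and 3223 CPM in microglia without WBRT (3105 to 3344). Both BMDM plates lay below both microglia plates, and no 2 of the 4 intervals overlapped. The share of wells with a Csf1r transcript was 97.7% in BMDM with WBRT, 82.5% in BMDM without WBRT, 91.4% in microglia with WBRT and 99.4% in microglia without WBRT. After every well was thinned to 1000 transcripts, the shares were 71.0%, 54.7%, 78.1% and 91.1% in the same groups. The order of the plates by thinned share was that of their CPM, while the unthinned share placed BMDM with WBRT above microglia with WBRT, a plate of shallower wells. The median well held 14, 3, 7 and 14 Csf1r transcripts in these plates, so BMDM without WBRT had the lowest median.

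**Figure D1:**
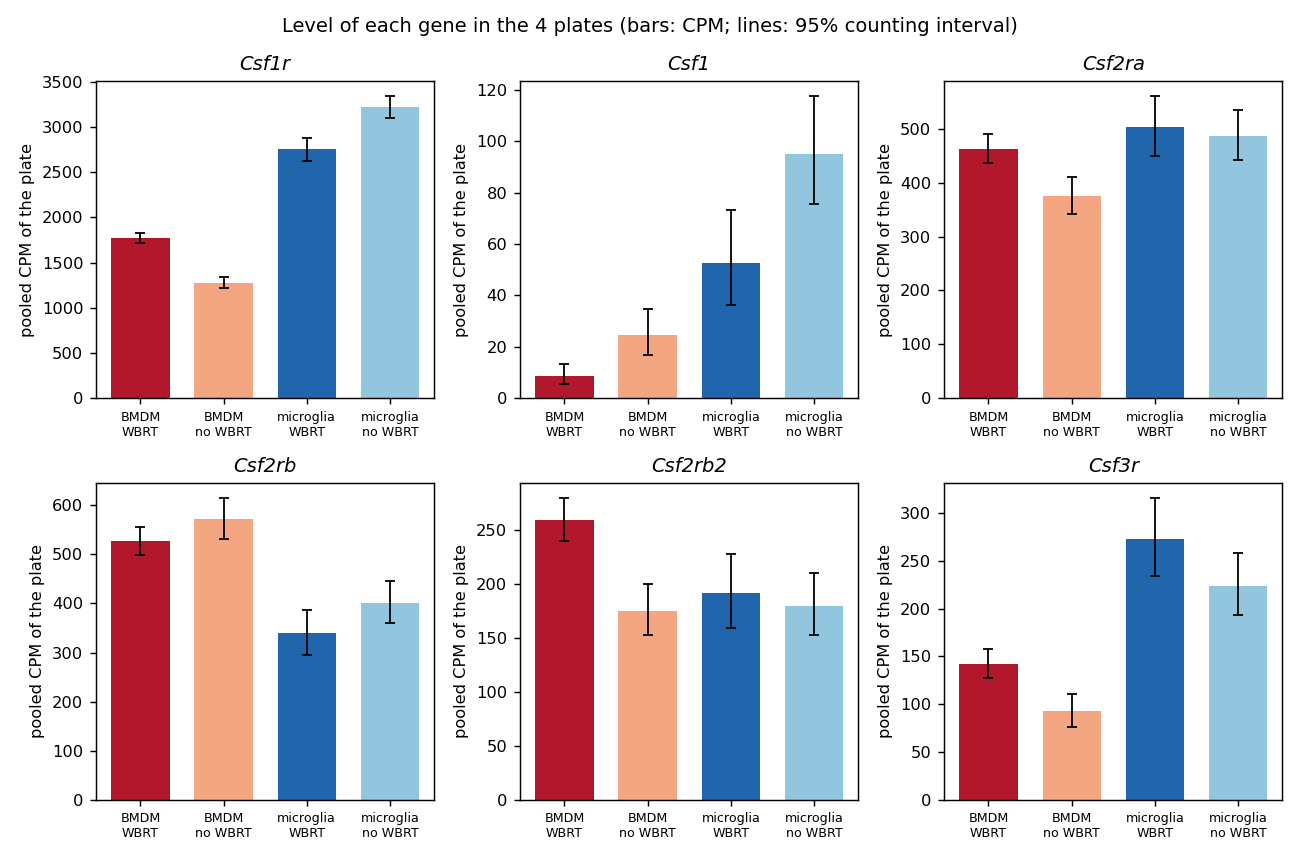
Pooled CPM of each gene (vertical axis, one panel per gene) in the 4 plates, with BMDM left of microglia and WBRT left of no WBRT. Bars are the CPM of 1 plate and lines its 95% counting interval. Csf1r runs from 1279 CPM in BMDM without WBRT to 3223 CPM in microglia without WBRT, and Csf2rb is the gene whose BMDM bars both stand above its microglia bars with no overlap of intervals.

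Without WBRT, Csf1r was 2.52-fold lower in BMDM than in microglia (2.37 to 2.68). With WBRT it was 1.55-fold lower in BMDM (1.47 to 1.64), short of a call. Within BMDM the plate with WBRT was 1.39-fold higher than the plate without (1.31 to 1.47), and within microglia it was 1.17-fold lower (1.10 to 1.24). In the plate sums the direction of the WBRT difference was therefore opposite in the 2 sorts. Whether the 2 effects differ was not tested.

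The cluster values show which wells carried the receptor. Csf1r stood at 3331 CPM in cluster 2, 3319 CPM in cluster 3 and 2743 CPM in cluster 7, all microglia-like, and at 1798 CPM in the border-associated macrophage-like cluster 4. Cluster 1, an unnamed cluster led by Spon1, Clec4a1, Ccr2, Mefv and Tgfbi with 134 of its 135 wells on the BMDM plates, had 1800 CPM. Dendritic cell-like wells were lowest, with 209 CPM in cluster 9, led by Snx22, Xcr1, Cd24a, Clec9a and Itgae, and 270 CPM in cluster 10, led by Ccr7, Cacnb3, Ccl22, Flrt3 and Adcy6. Cluster 6, unnamed and led by Cd209a, Ffar2, Cd7, Clec10a and Il1r2, had 714 CPM. These levels are a description, since clusters are made from the same wells.

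The dendritic cell-like wells held 28.7% of the transcripts of BMDM without WBRT but 5.37% of its Csf1r counts. With these wells left out, Csf1r stood at 1810 CPM in BMDM with WBRT and 1697 CPM in BMDM without WBRT, a 1.07-fold difference (1.01 to 1.13), and it was 1.90-fold lower in BMDM than in microglia without WBRT (1.78 to 2.02), no longer past 2-fold. In wells of the same cluster the values differed from this. In cluster 1, with 99 wells with WBRT and 35 without, Csf1r was 1.41-fold higher with WBRT (1.22 to 1.64), at 1884 against 1335 CPM, and in cluster 6 it was 1.29-fold higher (1.01 to 1.64). In the microglia-like cluster 2, with 64 and 55 wells of microglia with and without WBRT, it was 1.09-fold higher with WBRT (0.967 to 1.23), the opposite direction to the whole plates. Leaving out cluster 8, an unnamed cluster led by Kcnk2, Nav3, Apoc1, Tbx18 and Pkd2 with 36 of its 48 wells in BMDM without WBRT, gave a 1.73-fold difference in BMDM (1.62 to 1.85).

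**Figure D2:**
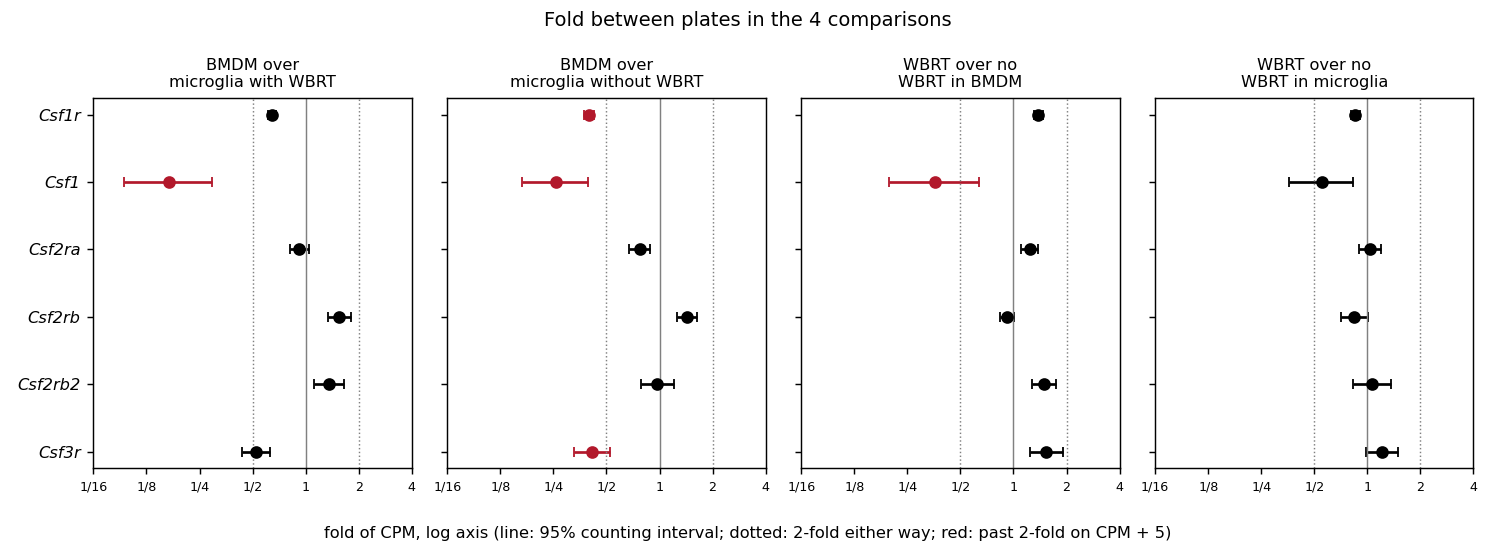
Fold of CPM on a log axis for each gene (rows) in the 4 comparisons (panels), with 95% counting intervals. Red points passed 2-fold on CPM + 5, which held for Csf1 in 3 panels and for Csf1r and Csf3r in the comparison of BMDM with microglia without WBRT.

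Microglia-like wells of the BMDM plates had Csf1r levels above those of their whole plates and below those of the microglia-like wells of the microglia plates. They stood at 2722 CPM in BMDM with WBRT (2530 to 2921) and 2554 CPM in BMDM without WBRT (2326 to 2793). The microglia-like wells of microglia stood at 3181 CPM with WBRT (3028 to 3340) and 3355 CPM without (3229 to 3485). In cluster 7 alone, with 20 BMDM and 33 microglia wells after WBRT, Csf1r was 1.10-fold lower in BMDM (0.995 to 1.22). In cluster 5, an unnamed cluster led by Slc40a1, Ccl8, Igf1, Hmox1 and Lpl, it was 1.06-fold higher in BMDM (0.810 to 1.37), at 1231 against 1166 CPM. Both intervals hold 1. Cluster 5 held 48 wells of microglia with WBRT and 5 of microglia without. With cluster 5 left out, the log2 ratio of Csf1r in microglia with over without WBRT was -0.0455 in place of -0.227.

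Over 16 pools of 1 cluster in 1 plate with at least 10 wells, the genes whose log2 level ran most like Csf1r were Ly86 (Pearson r = 0.966), Itgb5 (0.959), Csf3r (0.947), Lpcat2 (0.943) and Itgam (0.942), of 6294 genes compared. The pools share plates, depth and the wells from which clusters were made, so these correlations are given as a description. Ly86 encodes a partner of the Toll-like receptor family member Cd180, Itgb5 an integrin beta chain and Itgam the integrin chain Cd11b. The correlation of Csf1r with Csf2rb over the same pools was -0.454, with Csf2ra 0.289 and with Csf2rb2 0.0902.

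Csf1 (chromosome 3, 107741048 to 107760469) encodes the ligand, made by many cell types. It was sparse, with 22 counts in BMDM with WBRT, 31 in BMDM without WBRT, 34 in microglia with WBRT and 83 in microglia without WBRT. These gave 8.75 CPM (5.49 to 13.3), 24.5 CPM (16.6 to 34.8), 52.4 CPM (36.3 to 73.2) and 94.9 CPM (75.6 to 118) in the same plates. Microglia without WBRT stood highest and BMDM with WBRT lowest. A Csf1 transcript was found in 16 of 262, 11 of 234, 10 of 151 and 35 of 157 wells, and after thinning in 1.53%, 0.855%, 1.99% and 10.8% of wells. Only the plate of microglia without WBRT exceeded 2% after thinning.

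Csf1 was 5.99-fold lower in BMDM than in microglia with WBRT (3.40 to 10.7) and 3.87-fold lower without WBRT (2.54 to 6.06). In BMDM it was 2.80-fold lower with WBRT than without (1.57 to 5.07). In microglia it was 1.81-fold lower with WBRT (1.20 to 2.79), short of 2-fold. Few wells decided these values. With WBRT, the mean with every well weighted alike was 7.66 CPM in BMDM against 19.7 CPM in microglia and the thinned level 22.9 against 26.5 CPM, neither of them past 2-fold on CPM + 5. In microglia the weighted mean was 19.7 CPM with WBRT against 75.4 CPM without, past 2-fold lower. In BMDM without WBRT 1 well of the microglia-like cluster 7 held 51.7% of the counts, and the plate stood at 12.04 CPM without it. With the top well of each library left out, the log2 ratio of BMDM with over without WBRT was -0.44 in place of -1.10, and thinned to 1000 transcripts per well it was 0.65, on 6 and 3 transcripts.

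**Figure D3:**
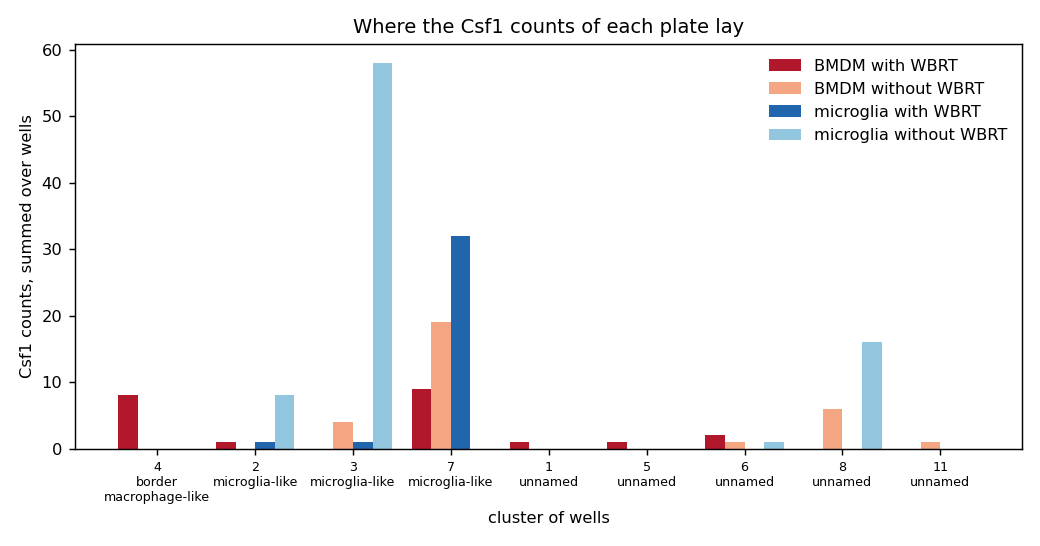
Csf1 counts (vertical axis) summed over the wells of each cluster (horizontal axis), one bar per plate. The tallest bars are the 58 counts of microglia without WBRT in cluster 3 and the 32 counts of microglia with WBRT in cluster 7.

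By cluster, Csf1 stood at 97.9 CPM in cluster 7 (74.6 to 126), 83.0 CPM in cluster 3 (63.8 to 106) and 67.3 CPM in cluster 8 (42.1 to 102). Within cluster 8 the plates differed. It stood at 312 CPM in 10 wells of microglia without WBRT and 22.7 CPM in 36 wells of BMDM without WBRT, on 16 and 6 counts. Clusters 3 and 7 differ by plate, since 84 of the 95 wells of cluster 3 were microglia without WBRT and 33 of the 57 wells of cluster 7 were microglia with WBRT and none were microglia without. In microglia with WBRT cluster 7 held 94.1% of the Csf1 counts, and in microglia without WBRT cluster 3 held 69.9%. In cluster 2, also microglia-like but with a low level of the nuclear RNA Malat1, Csf1 stood at 25.5 CPM (12.2 to 46.8). With the low-Malat1 clusters 2 and 5 left out, Csf1 stood at 103 CPM in microglia with WBRT and 104 CPM in microglia without WBRT, on 39 and 97 wells. In microglia with WBRT 1 well of cluster 7 held 38.3% of the Csf1 counts of the plate. Without this well the whole plate stood at 33.0 CPM. The dendritic cell-like clusters 9 and 10 had 0 counts, with upper limits of 12.4 and 30.1 CPM, and the border-associated macrophage-like cluster 4 had 8.26 CPM (3.57 to 16.3).

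Microglia-like wells were 26 and 20 of the BMDM wells with and without WBRT and held 11.1% and 14.6% of the transcripts of these plates. Their share of the Csf1 counts was 45.5% and 74.2%, on 10 and 23 counts. In BMDM without WBRT this includes the 1 well that held 51.7% of the counts. With microglia-like wells left out, Csf1 stood at 5.37 CPM in BMDM with WBRT and 7.40 CPM in BMDM without WBRT, 1.38-fold lower with WBRT (0.488 to 3.66), so the 2-fold call in BMDM did not hold. Wells with a Csf1 transcript were deep, with medians of 12293, 10153, 12498 and 7600 transcripts in BMDM with WBRT, BMDM without WBRT, microglia with WBRT and microglia without WBRT. Of these wells, 16 of 16, 10 of 11, 10 of 10 and 34 of 35 also held a Csf1r transcript. Ligand and receptor transcripts were therefore found in the same wells, in plates where 82.1% to 100% of the wells without Csf1 held Csf1r too. The genes most like Csf1 over the 16 pools were Hk2 (r = 0.889), Fam72a (0.887), 2810055G20Rik (0.880), Mlxipl (0.870) and Numb (0.869), all against pools of few Csf1 counts.

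Csf2ra (chromosome 19, 61217191 to 61228461), the chain that binds GM-CSF, varied least over the 4 plate sums among the 6 genes. It stood at 464 CPM in BMDM with WBRT (438 to 491), 375 CPM in BMDM without WBRT (342 to 411), 504 CPM in microglia with WBRT (451 to 561) and 487 CPM in microglia without WBRT (442 to 536). BMDM without WBRT lay below the other plates, whose intervals overlapped. The fold of BMDM over microglia was 0.920 with WBRT (0.814 to 1.04) and 0.770 without WBRT (0.675 to 0.880). WBRT over no WBRT was 1.24 in BMDM (1.11 to 1.38) and 1.03 in microglia (0.893 to 1.20). Of the 4 intervals 2 held 1 and none reached 2-fold. How the wells were taken mattered here. With every well weighted alike the mean was 353 CPM in microglia with WBRT against 458 CPM without. Under 15 alternatives the log2 ratio ran from -0.67 to 0.51 in BMDM over microglia with WBRT. In microglia with over without WBRT it ran from -0.69 to 0.54. The gene was called in none of these.

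Across clusters Csf2ra did not divide dendritic cell-like from microglia-like wells. It stood at 421 CPM in cluster 9 (350 to 501) and 221 CPM in cluster 10 (145 to 321), and at 354, 518 and 632 CPM in the microglia-like clusters 2, 3 and 7. Cluster 6 had 572 CPM (501 to 649) and there Csf2ra was 1.45-fold higher with WBRT in BMDM (1.11 to 1.90). Cluster 12, with 9 wells led by Ace, Emr4, S1pr5, Lilra5 and Spn, had 1002 CPM but an interval of 635 to 1502. The genes whose level ran most like Csf2ra over the pools were Il17ra (r = 0.866), Ubr1 (0.863), Abhd15 (0.859), Cep192 (0.859) and Dennd1c (0.852).

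Csf2rb and Csf2rb2 lie beside each other on chromosome 15, at 78325800 to 78351001 on the forward strand and 78282507 to 78305721 on the reverse strand, and are closely related copies. Like Csf1r, Csf1 and Csf3r, they overlap small annotated features such as microRNA genes, and whether strand was used in counting is not given in the sources used here. Their coding sequences, of 2691 and 2637 bases, matched at 92.9% of aligned positions, and 21.02% of the 60-base windows of Csf2rb2 also occurred in Csf2rb. The 120 coding bases that end at the stop codon of Csf2rb2 show how close and how different they are. Both stretches, from GENCODE M21 on GRCm38, lie in exon 14, at chr15:78349012-78349131 for Csf2rb and chr15:78284317-78284436 for Csf2rb2. The capitals mark the 7 bases that differ. The stretch ends with the stop codon of Csf2rb2, while Csf2rb reads on for 54 more coding bases.
Csf2rb: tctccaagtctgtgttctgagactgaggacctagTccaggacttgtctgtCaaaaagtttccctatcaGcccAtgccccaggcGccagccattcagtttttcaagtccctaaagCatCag
Csf2rb2: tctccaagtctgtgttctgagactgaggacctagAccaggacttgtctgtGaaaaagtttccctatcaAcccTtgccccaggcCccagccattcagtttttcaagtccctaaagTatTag
Further towards the end of the transcripts they part, with 74.6% identity over the last 500 bases and none of the 441 windows of 60 bases of Csf2rb2 found in Csf2rb. The plate method cited in the labels counts transcripts from their 3′ ends in its published form, but how the authors treated reads that fit both genes is not stated in the labels. The split of counts between both genes is uncertain for that reason.

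Csf2rb stood at 526 CPM in BMDM with WBRT (498 to 556), 572 CPM in BMDM without WBRT (531 to 615), 339 CPM in microglia with WBRT (296 to 387) and 401 CPM in microglia without WBRT (360 to 446). Both BMDM plates were above both microglia plates, and neither the BMDM pair nor the microglia pair was separated by its intervals. BMDM was 1.55-fold higher than microglia with WBRT (1.35 to 1.80) and 1.43-fold higher without WBRT (1.25 to 1.62). WBRT over no WBRT was 0.920 in BMDM (0.840 to 1.01) and 0.845 in microglia (0.710 to 1.003). Csf2rb thus went the other way from Csf1r between the sorts, and neither BMDM-over-microglia fold of the plate sums reached 2-fold. With WBRT this value depended on how the wells were taken. With every well weighted alike the mean was 527 CPM in BMDM against 216 CPM in microglia, and with every well thinned to 1000 transcripts the level was 542 against 192 CPM, both past 2-fold higher in BMDM. Leaving out the low-Malat1 clusters set the level at 544 CPM in BMDM with WBRT against 553 CPM in microglia with WBRT. In microglia the thinned level was 192 CPM with WBRT against 395 CPM without, past 2-fold lower.

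Csf2rb stood high in the dendritic cell-like clusters, the ones with the lowest Csf1r levels. It stood at 973 CPM in cluster 10 (806 to 1164) and 866 CPM in cluster 9 (762 to 977), and at 874 CPM in cluster 6 (785 to 968). The microglia-like clusters 2, 3 and 7 had 191, 447 and 552 CPM, and cluster 5 had 195 CPM. The dendritic cell-like wells held 39.6% of the Csf2rb counts of BMDM without WBRT. With these wells left out, Csf2rb stood at 502 CPM in BMDM with WBRT and 484 CPM in BMDM without WBRT, a fold of 1.04 (0.929 to 1.16), and at a fold of 1.21 over microglia without WBRT (1.05 to 1.39). In cluster 6 it was 1.45-fold higher with WBRT (1.16 to 1.80), at 1035 against 716 CPM, while in cluster 1 the fold was 0.987 (0.775 to 1.27). The genes most like it over the pools were Btg1 (r = 0.937), Hmha1 (0.936), Etv6 (0.932), Pmaip1 (0.929) and Rassf1 (0.924).

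**Figure D4:**
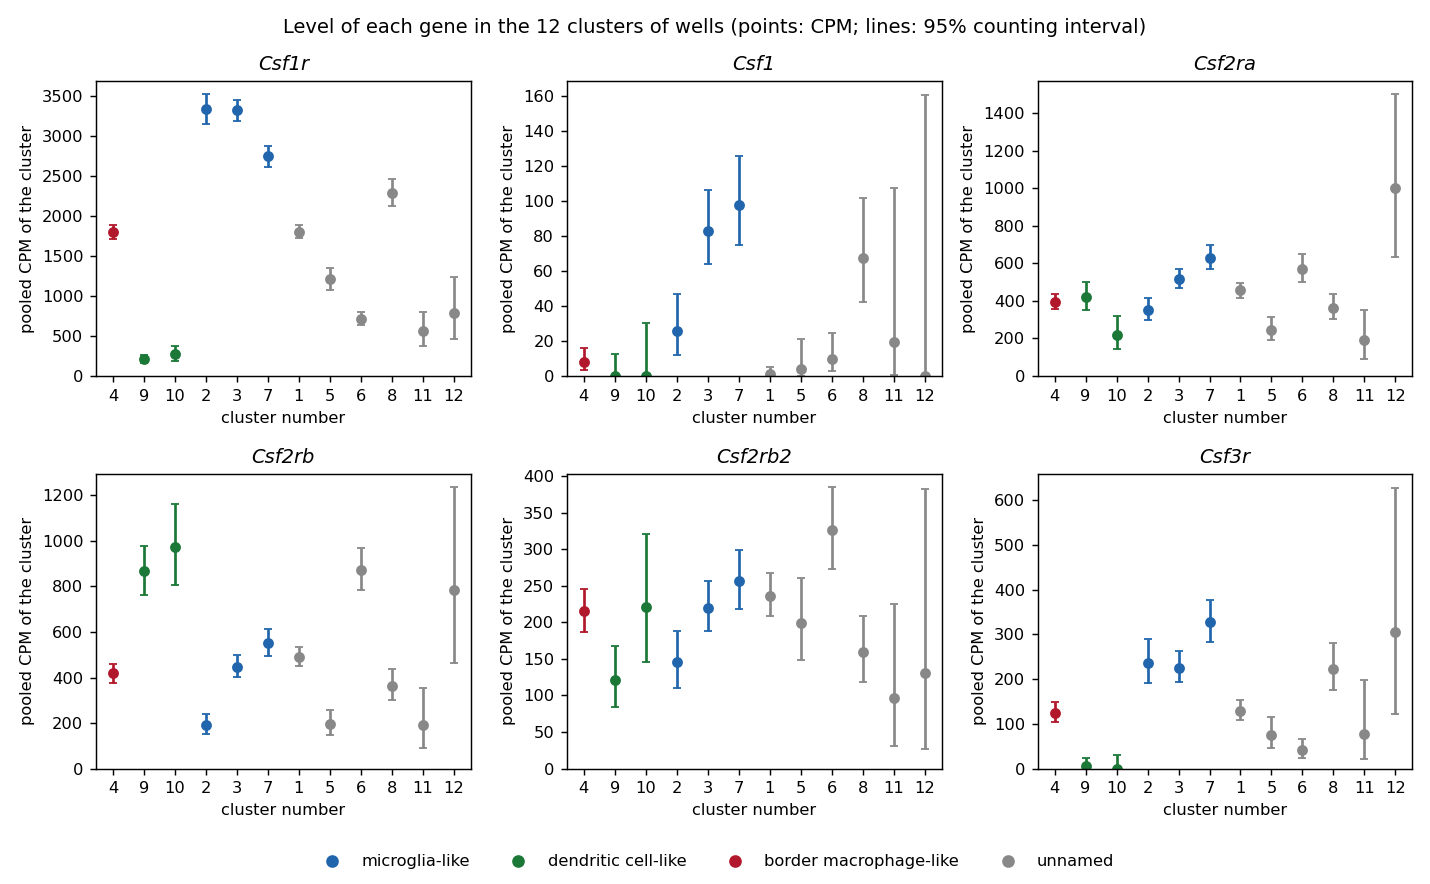
Pooled CPM of each gene (vertical axis) in the 12 clusters (horizontal axis, grouped and coloured by name), with 95% counting intervals. Csf1r and Csf3r are lowest in the dendritic cell-like clusters 9 and 10, at 209 and 270 CPM and at 6.73 and 0 CPM, while Csf2rb stands at 866 and 973 CPM there and at 874 CPM in cluster 6.

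Csf2rb2 stood at 259 CPM in BMDM with WBRT (239 to 279), 175 CPM in BMDM without WBRT (152 to 199), 191 CPM in microglia with WBRT (159 to 228) and 180 CPM in microglia without WBRT (153 to 210). BMDM with WBRT lay above the other plates, whose intervals overlapped. Csf2rb2 was 1.48-fold higher with WBRT in BMDM (1.27 to 1.73), with a fold of 1.32 when the dendritic cell-like wells were left out (1.11 to 1.57), and in cluster 6 it was 1.83-fold higher (1.27 to 2.68) and in cluster 1 1.67-fold higher (1.09 to 2.66). In microglia the fold was 1.06 (0.834 to 1.36). BMDM over microglia was 1.35 with WBRT (1.12 to 1.65) and 0.973 without WBRT (0.789 to 1.20).

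Csf2rb2 made up 32.9% of the counts of both beta chain genes in BMDM with WBRT (exact binomial interval 30.9% to 35.1%), 23.4% in BMDM without WBRT (20.7% to 26.2%), 36.0% in microglia with WBRT (31.0% to 41.4%) and 30.9% in microglia without WBRT (26.9% to 35.1%). The share was lowest in BMDM without WBRT. By cluster it was 12.3% in cluster 9 (8.76% to 16.6%) and 18.5% in cluster 10 (12.6% to 25.8%), and 50.5% in cluster 5 (40.5% to 60.4%). The 2 genes were thus not in 1 fixed ratio. In cluster 9 Csf2rb stood at 866 CPM and Csf2rb2 at 121 CPM (84.8 to 168), while in cluster 5 they stood at 195 and 199 CPM. The gene most like Csf2rb2 over the pools was Zfp868 (r = 0.819), followed by Acbd5 (0.805), Zfp703 (0.789), Sel1l (0.785) and Exoc1 (0.756), lower values than for the other members.

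A cell needs both an alpha and a beta chain to bind GM-CSF with high affinity. Among wells with a Csf2ra transcript, 89.8% in BMDM with WBRT, 87.9% in BMDM without WBRT, 63.6% in microglia with WBRT and 73.9% in microglia without WBRT also held a Csf2rb transcript. Among wells without one the shares were 59.5%, 67.5%, 21.2% and 42.9%, but those wells were shallower, with medians of 2049 to 3288 transcripts against 4980 to 9763. After thinning to equal depth the shares with and without Csf2ra were 38.0% and 37.1% in BMDM with WBRT, 40.8% and 36.7% in BMDM without WBRT, 20.6% and 15.4% in microglia with WBRT, and 27.0% and 27.7% in microglia without WBRT. At equal depth the shares lay closer together than before thinning.

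Csf3r (chromosome 4, 126023441 to 126044975) stood at 142 CPM in BMDM with WBRT (128 to 158), 92.4 CPM in BMDM without WBRT (76.4 to 111), 273 CPM in microglia with WBRT (234 to 316) and 224 CPM in microglia without WBRT (194 to 258). Both BMDM plates were below both microglia plates, whose 2 intervals overlapped. Csf3r was 2.42-fold lower in BMDM than in microglia without WBRT (1.92 to 3.07), past the 2-fold mark, and 1.92-fold lower with WBRT (1.59 to 2.30). It was 1.54-fold higher with WBRT in BMDM (1.24 to 1.91), and the fold in microglia was 1.22 (0.987 to 1.499). Of the 9 neutrophil markers 2 to 4 had counts in a plate, summing to 51.8 to 103 CPM, and the 5 named above were at 0 in every plate.

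By cluster Csf3r, like Csf1r, was lowest in the dendritic cell-like clusters. Among the microglia-like clusters the order differed, with cluster 7 highest for Csf3r and lowest for Csf1r. Csf3r stood at 328 CPM in cluster 7 (284 to 376), 237 CPM in cluster 2 and 225 CPM in cluster 3, at 223 CPM in cluster 8 and at 125 and 129 CPM in clusters 4 and 1. In the microglia-like wells of BMDM it stood at 349 CPM with WBRT (283 to 425) and 114 CPM without (70.6 to 174). In the dendritic cell-like clusters it had 2 counts (6.73 CPM) in cluster 9 and 0 counts in cluster 10, with an upper limit of 30.1 CPM. These clusters held 1.71% of the Csf3r counts of BMDM without WBRT. With them left out, the fold with WBRT in BMDM was 1.14 (0.922 to 1.42), and BMDM was 1.76-fold lower than microglia without WBRT (1.39 to 2.23), no longer past 2-fold. With cluster 8 left out, the fold with WBRT in BMDM was 2.21 (1.69 to 2.93). Over the 16 pools the genes most like Csf3r were Itgb5 (r = 0.958), Ly86 (0.955), Csf1r (0.947), Itgam (0.936) and Pald1 (0.935), of which Itgb5, Ly86 and Itgam are also among the 5 most like Csf1r.

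**Figure D5:**
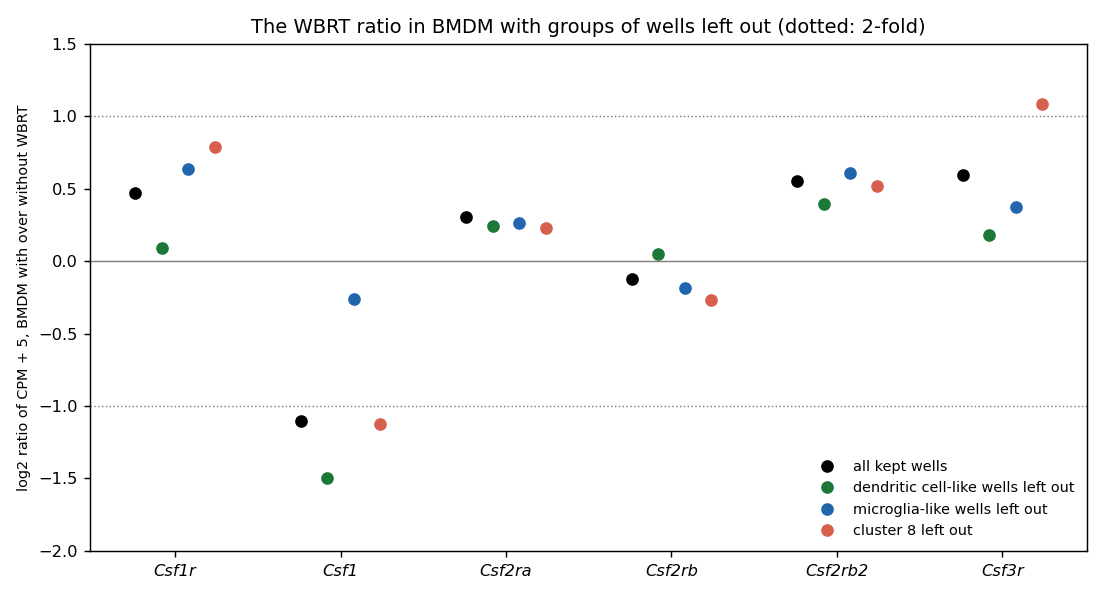
Log2 ratio of CPM + 5 of BMDM with over BMDM without WBRT (vertical axis) for each gene, over all kept wells and with 3 groups of wells left out in turn. Without dendritic cell-like wells Csf1r and Csf3r come near 0, at 0.09 and 0.18, and without microglia-like wells Csf1 comes near 0, at -0.26.

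The promoter of Csf3r is shown because its level ran with that of Csf1r and because Spi1 (PU.1), the factor that drives many myeloid receptor genes including Csf1r, is known to bind the core GAGGAA. RefSeq promoters, 250 bases before to 50 after the start on GRCm38.p6, were matched for Csf1, Csf2ra, Csf2rb2 and Csf3r, and not for Csf1r and Csf2rb. Both strands were searched for GAGGAA, for the longer GAGGAAGT, which holds it, and for TTGCNNAA, a partly fixed form of the C/EBP motif. The stretch of Csf3r lies on the forward strand at chr4:126024409-126024708, with its GAGGAA match in capitals. It lies inside the gene span given above, 126023441 to 126044975. The start it is placed on is therefore not the first base of that span.
Csf3r: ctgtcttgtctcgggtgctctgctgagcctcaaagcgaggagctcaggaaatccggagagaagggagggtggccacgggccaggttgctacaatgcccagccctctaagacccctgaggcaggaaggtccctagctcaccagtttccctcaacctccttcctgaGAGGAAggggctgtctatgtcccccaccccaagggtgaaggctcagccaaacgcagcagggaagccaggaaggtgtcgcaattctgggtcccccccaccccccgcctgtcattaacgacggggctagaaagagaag
GAGGAA occurred 1 time in Csf3r, 2 times each in Csf2ra and Csf2rb2 and not in Csf1, and it occurs in 28.3% of 32851 promoters of the same length. GAGGAAGT occurred 1 time, in Csf2rb2, and occurs in 3.20% of promoters. TTGCNNAA occurred in none of the 4 and in 10.8% of all. These are matches of letters and show no binding.

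Other genes of the pathway were taken from fixed lists. Of 7 ligands and other receptor subunits, 4 were among the features and none reached 20 CPM in any plate. Csf2, which encodes GM-CSF, had 3 counts and Csf3 1 count in BMDM without WBRT, and neither had a count in the other plates. Il3ra and Il5ra, the alpha chains for interleukin-3 and interleukin-5, stood at 5.17 and 10.3 CPM in BMDM with WBRT, 8.69 and 7.90 CPM in BMDM without WBRT, 0 and 9.24 CPM in microglia with WBRT, and 3.43 and 5.72 CPM in microglia without WBRT. The Csf1r ligand gene Il34 was not analysed here. The receptors were thus far better represented in counts than the ligands listed, for which so few counts allow no comparison. The 4 genes of this list are named outside the rule for named genes, with their values known.

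The list of Csf1r signalling genes differed little between plates. Of 19 genes tested, 1 was past 2-fold higher and 1 lower in BMDM over microglia with WBRT, 2 higher and 0 lower without WBRT, none in BMDM with over without WBRT, and 1 lower in microglia with over without WBRT. Of all features 15.4%, 17.2%, 11.3% and 16.9% were called in either direction in the same comparisons. The medians were 0.06, -0.03, 0.16 and -0.08 on the log2 scale, beside 0.07, 0.02, 0.08 and 0.06 over all features. Fgr, a Src-family kinase of myeloid cells, was 6.96-fold higher in BMDM with WBRT than in microglia with WBRT (4.01 to 13.2), at 139 against 20.03 CPM, and 2.60-fold higher without WBRT (1.93 to 3.56), at 167 against 64.0 CPM. In microglia Fgr was 3.20-fold lower with WBRT (1.73 to 6.37). It was called in each of these 3 comparisons. The other called genes, named after their values were seen, were the kinase gene Src, 2.54-fold lower in BMDM over microglia with WBRT, at 11.54 against 29.3 CPM, and the ubiquitin ligase gene Cbl, 2.67-fold higher in BMDM over microglia without WBRT, at 45.8 against 17.1 CPM.

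Of the 8 regulators of Csf1r transcription, 2 were past 2-fold higher and 1 lower with WBRT in BMDM. Of all features 5.16% were called higher and 6.14% lower there. The median of the 8 was 0.49, beside 0.08 over all features. Ets2, which encodes a transcription factor of the Ets family, stood at 303 CPM with WBRT against 124 CPM without. Irf8, which is needed for microglia and for cross-presenting dendritic cells, was 2.43-fold lower with WBRT (2.23 to 2.66), at 371 against 902 CPM. The dendritic cell-like wells held 52.3% of the Irf8 and 8.92% of the Ets2 counts of BMDM without WBRT. With them left out, Ets2 was 1.96-fold higher (1.63 to 2.35) and Irf8 1.78-fold lower (1.59 to 1.98), neither of them past 2-fold on CPM + 5. Spi1 itself stood at 412 and 407 CPM in BMDM with and without WBRT, and at 342 and 459 CPM in microglia with and without WBRT. In microglia Cebpb was 3.30-fold lower with WBRT (2.82 to 3.88), at 296 against 977 CPM, and it was the 1 gene of the 8 past 2-fold there. In BMDM over microglia with WBRT Cebpb was also the 1 gene called, 2.15-fold higher (1.85 to 2.51). Without WBRT none of the 8 was called, with 7 of 8 below 0 and a median of -0.56, beside 0.02 over all features. Of all features 16.9% were called in microglia with over without WBRT. In BMDM over microglia 15.4% were called with WBRT and 17.2% without.

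The signalling genes of the beta common chain and the Csf3r receptor included larger differences. Of 13 tested, 5 were past 2-fold higher and none lower in BMDM over microglia without WBRT, with a median of 0.39 beside 0.02 over all features. Of all features 10.3% were called higher and 6.81% lower there. The direction was mixed, with 7 of the 13 genes above 0 and 6 below. The survival gene Bcl2l1 had a log2 ratio of -0.98 and Socs3 one of -0.63, neither of them called. Socs2, a feedback inhibitor induced by Stat5, was 11.9-fold higher (6.31 to 25.2), at 136 against 11.4 CPM. Pim1, a kinase gene induced by the same pathway, was 5.71-fold higher (4.30 to 7.69), and Jak2, the kinase bound to the beta common chain, 5.48-fold higher (3.98 to 7.71). The other called genes, named after their values were seen, were Stat5a at 39.5 against 9.15 CPM and Stat5b at 43.4 against 16.01 CPM, both transcription factors activated by these receptors. The dendritic cell-like wells held 81.4% of the Socs2, 48.5% of the Pim1 and 59.8% of the Jak2 counts of BMDM without WBRT. With these wells left out Socs2 was 3.10-fold higher (1.49 to 7.07), Pim1 4.12-fold (3.06 to 5.63) and Jak2 3.09-fold (2.18 to 4.46).

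Within BMDM, 3 of 13 of these genes were past 2-fold lower with WBRT and none higher, beside 6.14% of all features called lower and 5.16% higher. Socs2 was 21.4-fold lower (12.8 to 38.2), at 6.37 against 136 CPM, and Jak2 4.91-fold lower (4.01 to 6.02), at 54.9 against 269 CPM, and the third called gene was Stat5a. With dendritic cell-like wells left out, the folds were 7.26-fold lower for Socs2 (3.64 to 15.5) and 2.98-fold lower for Jak2 (2.32 to 3.83). Socs3, which restrains signals of Csf3r, was 1.66-fold lower (1.46 to 1.90), and the survival gene Bcl2l1 was 1.73-fold higher, at 69.6 against 40.3 CPM. With WBRT 2 of 10 tested were past 2-fold higher in BMDM over microglia and none lower. These were Pim1 at 302 against 87.8 CPM and Jak2 at 54.9 against 18.5 CPM. Of the 10 genes, 5 lay above 0 and 5 below, with a median of 0.05 beside 0.07 over all features. Socs3 and Bcl2l1 had log2 ratios of -0.985 and -0.832 in this comparison, short of a call. In microglia 1 of 11 was past 2-fold lower with WBRT and none higher. This was Jak2, at 18.5 against 49.2 CPM. Of all features 7.91% were called higher in BMDM over microglia with WBRT. In microglia with over without WBRT 7.56% were called lower.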

How the data were processed

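Single myeloid cells from 4 plates were measured, 1 library per group, grouped by the sample titles. The authors deposited estimated counts for each gene in each well, not normalized, from libraries made, per the labels' protocols, by the cited method of Muraro and colleagues. Of the nonzero values 98.2% to 98.8% per plate matched, within 0.0051, the formula that corrects for chance coincidence of 4096 identifiers, which is how the decimals were read here. The genome build was GRCm38, per the submitters' processing notes. Aligner, counter and annotation are not stated there. In its published form that method tags each transcript with a unique molecular identifier (UMI), and the files list ERCC spike-in RNA.

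Wells with at least 1000 counts outside ERCC and mitochondrial rows and an ERCC share under 50% were kept. The ERCC limit by itself removed 15 wells of microglia with WBRT. CPM were taken from plate sums over the total of endogenous counts, and a count of 3 equals 1.19, 2.37, 4.62 and 3.43 CPM in BMDM with WBRT, BMDM without WBRT, microglia with WBRT and microglia without WBRT. Intervals are exact Poisson, exact conditional (ratios) and Clopper-Pearson (shares) at 95%, on counts rounded to whole numbers. They cover counting error only. Poisson counts were simulated for 15690 genes. Among genes with a pooled mean of at least 50 CPM, the ratio intervals held the true fold for 95.2% to 96.3% in the 4 comparisons. Sparser genes were not part of these shares.

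Clusters of wells came from scanpy 1.11.5, leaving out the 6 genes and cell cycle, mitochondrial and ribosomal genes (Leiden resolution 1, 15 neighbours, 30 components, 2000 variable genes), and were named from fixed markers, at least 3 of a type. A cluster with a median Malat1 under 1000 CPM is called low-Malat1, a limit set after seeing the data. Doublets were not searched for, the sort having been for 1 cell a well. Chil3 and Spi1 were matched through RefSeq synonyms, and 3 of 49 pathway genes were not used here. The rule for named genes took all 6 members, per list and comparison up to 4 genes of at least 50 CPM with the highest absolute log2 ratio, the 5 genes most like each member, and 5 leading genes per cluster. Of the list genes that the rule takes, 1 is not reported here. Members, lists and markers were chosen with earlier results of these data known. Tools were Python 3.11.15, numpy 2.4.6, scipy 1.17.1, pandas 2.3.3 and Biopython 1.88. The alternatives tried concerned well filters, scaling, pseudocount, thinning and groups of wells.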

Additional observations from a re-analysis of the deposited data

Results flagged for a closer look

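Csf1r differed in opposite directions with WBRT in the 2 sorts. The log2 ratio of CPM + 5 was 0.469 in BMDM with over without WBRT and -0.227 in microglia with over without WBRT. In BMDM the ratio was 0.09 with dendritic cell-like wells left out and 0.79 with cluster 8 left out. In microglia it was -0.0455 with cluster 5 left out. Neither ratio turned sign in any of 15 alternatives. With 1 library per group the difference between the ratios of the 2 sorts was not tested.

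Csf1r transcripts were also present in the wells that the filters left out. These wells gave 1300 CPM in BMDM with WBRT (989 to 1676, on 59 counts), 1846 CPM in BMDM without WBRT (1379 to 2421, on 52 counts), 2197 CPM in microglia with WBRT (1914 to 2509, on 217 counts) and 3551 CPM in microglia without WBRT (3079 to 4071, on 204 counts). They are 122, 150, 233 and 227 wells, and each value lies above the limit that a count of 3 sets there, 30.4 to 106 CPM. Within BMDM the level was lower with WBRT in these wells, the opposite direction to the kept wells, although the intervals overlap. Within microglia it was lower with WBRT, as in the kept wells. Both BMDM plates lay below microglia without WBRT, while BMDM without WBRT and microglia with WBRT had overlapping intervals.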

How the results depend on the processing

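Of 360 member log2 ratios under alternatives, 290 stayed within the counting interval of the reported value, 69 moved beyond it and 1 was of a called gene and turned sign, and 14 turned sign in all, the other ones of genes not called. The called one was Csf1 in BMDM with over without WBRT, at 0.65 (0.6468) when every well was thinned to 1000 UMIs, where 6 and 3 transcripts remained. The number of the 6 genes called was 1 in BMDM over microglia with WBRT and became 2 with wells of at least 3000 counts, with an ERCC share under 20%, without the low-Malat1 clusters, without cluster 5, and with microglia-like wells left out of BMDM plates and only these kept on microglia plates, the added gene being Csf3r. It stayed 1 with every well weighted alike and with thinning, but there Csf1 was no longer called, with log2 ratios of -0.96 and -0.17, and Csf2rb was called higher, with 1.27 and 1.47. Without WBRT it was 3 and became 1 with dendritic cell-like wells left out. With over without WBRT in BMDM it was 1 and became 0 with every well weighted alike, with thinning, with a pseudocount of 20 CPM, without microglia-like wells and without the top well, and 2 without cluster 8. In microglia it was 0 and became 1 with every well weighted alike or without the top well and 2 with thinning, Csf1 and in the last case Csf2rb. The pathway genes called numbered 5, 7, 6 and 3 in the 4 comparisons, beside 15.4%, 17.2%, 11.3% and 16.9% of all features. In BMDM over microglia with WBRT they became 10 with thinning and 3 with a pseudocount of 20 CPM, and without WBRT 12 with every well weighted alike and 13 with thinning. In BMDM with over without WBRT they became 10, 12, 2 and 13 with every well weighted alike, thinning, dendritic cell-like wells left out and microglia-like wells left out, and in microglia 9 with thinning. The cause was not tested, except that thinning leaves few transcripts of low genes. The alternatives by microglia-like wells, cluster 5 and cluster 8 were chosen after seeing the data. No paired analysis was possible because each group is 1 library. Depth limits Csf1 most, with 22 to 83 counts per plate.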
